A study of Homo sapiens with 2 samples.

Results

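Abundant structural RNAs of the ribonucleases P and MRP and of the ribosome were followed, together with the unnamed row ENSG00000258486.2. The cells were D407, an established human cell line labelled as retinal pigment epithelium (RPE). The 7 rows were chosen by name from the 37364 rows of the gene table, with their high levels in these libraries already known, so their levels are a description and no test was made on them. They stand for 5 loci, because RMRP is also listed as ENSG00000269900.2 and RPPH1 as ENSG00000259001.2. The other rows are ENSG00000258486.2, RNA45S5 and RNA5-8S5.

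The clusterin library (n = 1) came from cells given clusterin, which is a chaperone glycoprotein of body fluids, and the control library (n = 1) from control cells. Both came from serum-supplemented cultures. No dose or duration of clusterin is stated in the labels. With 1 library per group no difference has a replicate check, and the intervals below cover counting error only, since reads that carry no molecular identifiers can repeat 1 molecule. In bulk RNA, fewer cells of a type and less RNA per cell cannot be told apart. Defining RPE markers were mostly absent. RPE65, RLBP1, LRAT, TTR and TYR were listed at 0 in both libraries, MITF stood at 9.70 and 9.88 RPKM and BEST1 at 2.14 and 1.73, while the simple epithelial keratin KRT7 stood at 407 and 420. RPKM is the number of reads per kilobase of transcript and relative to the size of the library. The authors' scaling implied a total of 38236992 control reads and 33177090 clusterin reads.

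RMRP is the RNA of ribonuclease MRP, which cleaves the precursor of ribosomal RNA, and RPPH1 is the RNA of ribonuclease P, which removes the leader of precursor transfer RNAs. Both enzymes share most of their proteins, and both RNAs are made by RNA polymerase III from promoters that lie upstream of the gene. RNA45S5 is the RNA polymerase I transcript from which the ribosomal RNAs are cut, except the 5S RNA, and RNA5-8S5 is the 5.8S segment within it. None of these RNAs ordinarily carries the long poly(A) tail of a messenger RNA, whereas the labels' protocol describes enrichment on oligo(dT) beads.

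The RMRP and RPPH1 genes each lie head to head with a protein-coding gene. RMRP (chromosome 9, 35657751 to 35658018, minus strand, GRCh38) was listed with 263 bases between it and CCDC107, a coiled-coil protein gene on the plus strand. RPPH1 (chromosome 14, 20343071 to 20343411, minus strand) was listed with 202 bases between it and PARP2, a poly(ADP-ribose) polymerase of DNA repair. The windows from 250 bases before to 50 after the RefSeq starts of CCDC107 and PARP2 therefore cover the DNA from which RMRP and RPPH1 are read in the other direction. Promoter windows of the structural RNA genes themselves were not used here. Both windows are shown because the pair of genes on either side stood at very different levels. They are RefSeq sequences of GRCh38.p14, plus strand, chr9:35658042-35658341 and chr14:20343385-20343684, with matches to 2 motifs in capitals.
CCDC107: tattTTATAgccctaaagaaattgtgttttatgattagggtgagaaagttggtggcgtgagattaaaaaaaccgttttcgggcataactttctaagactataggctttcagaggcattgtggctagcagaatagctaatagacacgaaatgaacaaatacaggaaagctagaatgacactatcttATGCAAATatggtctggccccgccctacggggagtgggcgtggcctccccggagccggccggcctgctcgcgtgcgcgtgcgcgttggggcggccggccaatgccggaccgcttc
PARP2: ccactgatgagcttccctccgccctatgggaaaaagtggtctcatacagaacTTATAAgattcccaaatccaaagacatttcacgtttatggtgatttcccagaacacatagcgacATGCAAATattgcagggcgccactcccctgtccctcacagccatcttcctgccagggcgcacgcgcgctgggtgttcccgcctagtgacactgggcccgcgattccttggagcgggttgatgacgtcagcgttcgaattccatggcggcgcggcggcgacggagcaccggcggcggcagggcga
The motifs searched were the octamer ATTTGCAT and TATAA, each on both strands. In the CCDC107 window the octamer, read on the minus strand as RMRP is, lay 208 to 215 bases from the first base of RMRP, and TATAA on the same strand lay 27 to 31 bases from it. In the PARP2 window, whose first 27 bases belong to RPPH1, the octamer on the minus strand lay 90 to 97 bases from the first base of RPPH1. There TATAA on the minus strand lay 26 to 30 bases away and overlapped a second match on the plus strand. Of 34943 promoter windows of the same length, 1.77% held the octamer, 20.5% held TATAA and 0.575% held both. These matches describe letters and not bound sites.

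RMRP stood at 166650 RPKM in the control library and 171559 in the clusterin library. The clusterin value was 1.029 times the control value (95% counting interval 1.027 to 1.032). It rested on 1707748 control and 1525410 clusterin reads. ENSG00000269900.2 carried the same values, over a span of the same 268 bases. Both rows were second in level in both libraries, and RMRP held 4.47% of control reads and 4.60% of clusterin reads.

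RPPH1 stood at 68088 RPKM in the control and 68367 with clusterin, a ratio of 1.0041 (1.0011 to 1.0072) from 887785 and 773466 reads. Its second listing, ENSG00000259001.2, stood at 36394 and 36543 RPKM. The 2 rows thus differed 1.87-fold in level within each library, and their spans, 638 and 341 bases, differed by the same 1.87-fold. Multiplied by these spans, the levels gave 887829 control and 773509 clusterin reads for the longer row, 43.7 and 43.5 more than RPPH1, with rounding limits of 1.87 and 1.62 reads. So the longer row counted almost the same reads over 297 further bases, and a level per length for this RNA depends on which row is read. Of 167 pairs matched by name and measured, 24 carried equal levels in both libraries, as the RMRP rows did.

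Per length, RMRP stood 2.45 times above RPPH1 in the control library and 2.51 times above it with clusterin. CCDC107, across the shared upstream DNA from RMRP, stood at 11.6 and 10.6 RPKM, so RMRP was 14340 times above it in the control and 16237 times with clusterin. PARP2 stood at 6.65 and 5.13 RPKM, and RPPH1 was 10235 and 13334 times above it. These are ratios of levels in libraries described as enriched on oligo(dT) beads, and the part of that enrichment in them was not tested. The log2 ratio of clusterin to control, taken after adding 1 RPKM to each level, was -0.32 for PARP2, -0.13 for CCDC107 and -0.0088 for CCNB1IP1, the gene on the other side of RPPH1. SIT1, on the other side of RMRP, was listed at 0. Whether counting used strand is not stated in the labels, and where genes on opposite strands overlap their reads cannot be told apart.

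ENSG00000258486.2 headed the table, at 473833 RPKM in the control and 477483 with clusterin. Its ratio was 1.0077 (1.0065 to 1.0089) from 5435385 and 4752449 reads. Per length it was 2.84 times above RMRP in the control library and 2.78 times above it with clusterin. This 1 row of 300 bases on chromosome 14 held 14.2% of control reads (14.20 to 14.23, exact binomial interval) and 14.3% of clusterin reads (14.31 to 14.34). The table gives it no symbol, and the reference table of names holds no entry for its identifier. RefSeq lists 2 genes of the signal recognition particle RNA on the same chromosome at 299 bases each. They are RN7SL1, from base 49586580, and RN7SL2, from base 49862551. The row starts at base 50053297. RPPH1 starts at 20343071 by symbol and at 20811207 by Ensembl identifier, so the 2 kinds of listing are shifted against each other. The step from RN7SL1 to the row is close to this shift, and the step from RN7SL2 is much smaller. By position the row thus fits RN7SL1 better than RN7SL2. No coordinates were converted between builds, so the row was left unnamed.

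RNA45S5 stood at 6101 RPKM in the control and 6521 with clusterin, a ratio of 1.069 and a log2 ratio of 0.10. With the 13373 bases of the RefSeq entry on chromosome 22, this was 3119874 and 2893006 reads, or 8.16% and 8.72% of the library, and the counting interval of the ratio was 1.067 to 1.070. The gene is repeated in the genome. If several copies were counted in this row, the share belongs to the length of 1 copy.

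RNA5-8S5 was the member that differed most between the libraries, at 840 RPKM in the control and 544 with clusterin. The log2 ratio was -0.62, and the ratio of levels 0.649 (0.619 to 0.679). At 156 bases, the length of the RefSeq entry on chromosome 22, both levels became whole reads, 5008 in the control and 2818 with clusterin. Of the lengths from 100 to 400 bases, 3 longer ones also gave whole reads, and shorter lengths were not searched. In the authors' deposited table its p-value was 4.37e-154, the smallest above 0. Recomputed from read sampling alone, p was 5.34e-78 with 5008 and 2818 reads and 4.53e-154 with 10016 and 5636 reads over 312 bases. The deposited p was thus close to the p of 2 copies of the segment counted together. For 8 small RNA rows the deposited p was not within 2% of the recomputed p, and multiples of the reads up to 5 were tried. Doubling gave the deposited p, within 5%, for SNORD103A, SNORD103B, SNORD116-17 and SNORD116-19, which are small RNA genes with near-identical copies. The SNORD103 rows had the same reads and p as each other, as did the SNORD116 rows. No multiple fitted MIR3648, MIR675, SNORD10 or SNORD22. The interval above rests on the smaller counts and is the wider one.

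The 5.8S segment went the other way from the precursor that contains it. Per length it stood at 13.8% of the RNA45S5 level in the control and 8.35% with clusterin. The RefSeq segment has 156 bases, while the labels describe fragments of about 200 bp, and the part of fragment size in the low 5.8S level was not tested. The plot of levels shows the members beside other structural RNAs.

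**Figure D1:**
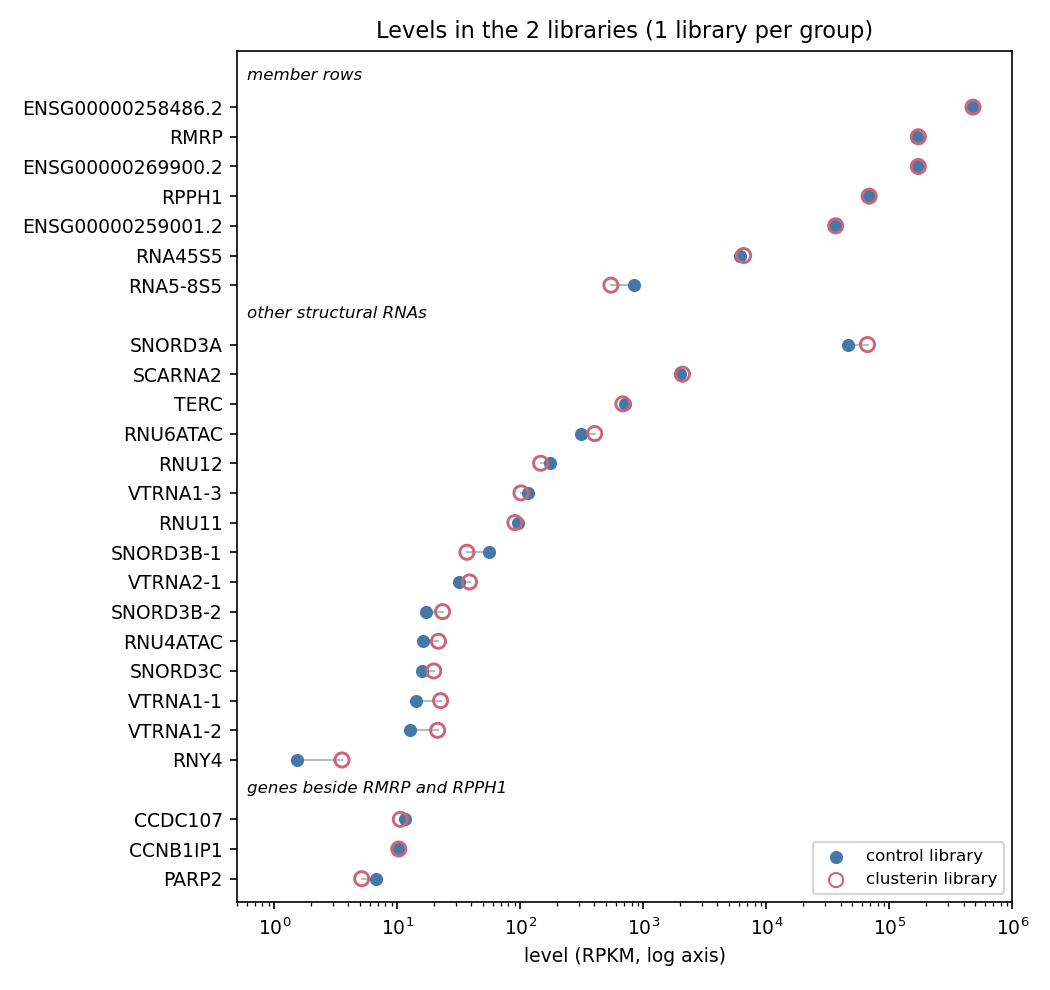
Level of each row in RPKM on a log axis, with filled circles for the control library and open circles for the clusterin library, for the 7 member rows, 15 other structural RNAs and 3 genes beside RMRP and RPPH1. The circles of the highest 6 member rows nearly coincide, RNA5-8S5 is shifted from 840 to 544, and SNORD3A from 45884 to 66307.

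Most rows with a mean of at least 1 RPKM were slightly lower in the clusterin library, and the member rows lay above that offset, except RNA5-8S5. Over 13244 rows with a mean of at least 1 RPKM the median log2 ratio was -0.06, and over 444 rows with a mean of at least 100 RPKM it was -0.04. A log2 ratio above 0 was found for 29.8% of the first group and 33.6% of the second, and for 6 of the 7 member rows, which are 4 of the 5 loci. The log2 ratios of the 4 were 0.0059 for RPPH1, 0.011 for ENSG00000258486.2, 0.042 for RMRP and 0.096 for RNA45S5. RNA45S5 lay above 89.2% of the 444 high rows, RMRP above 78.6%, ENSG00000258486.2 above 70.7% and RPPH1 above 68.9%. Their log2 ratios were inside the range from -0.18 to 0.19 that held the central 90% of high rows, so none of these 4 stood outside the spread of comparable rows. RNA5-8S5 was the lowest of the 444.

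No member row reached a 2-fold difference, against 0.219% of the 13244 rows. RNA5-8S5 was at least 1.5-fold lower, a limit chosen after seeing the data. So were 0.498% of these rows and 0.225% of the 444 high rows, where RNA5-8S5 was the 1 row. In the authors' deposited table q was below 0.05 for 5 of the 7 member rows, or 4 of the 5 loci, since RMRP is listed under 2 names. The same held for 12% of the 20642 rows above 0 and 54.1% of the high rows. These q-values come from read sampling error between 2 libraries and follow depth. RPPH1 had a q of 0.0645 and ENSG00000259001.2 of 0.0638. The 4 rows with a deposited p of 0, RMRP, ENSG00000269900.2, ENSG00000258486.2 and RNA45S5, were all higher with clusterin. Among the 6865 rows higher with clusterin the smallest deposited p above 0 was 1.78e-15 and 23 were 0, whereas among the 13777 lower rows the smallest above 0 was 4.37e-154 and 2 were 0. A deposited p of 0 is therefore no order of size among these RNAs.

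**Figure D2:**
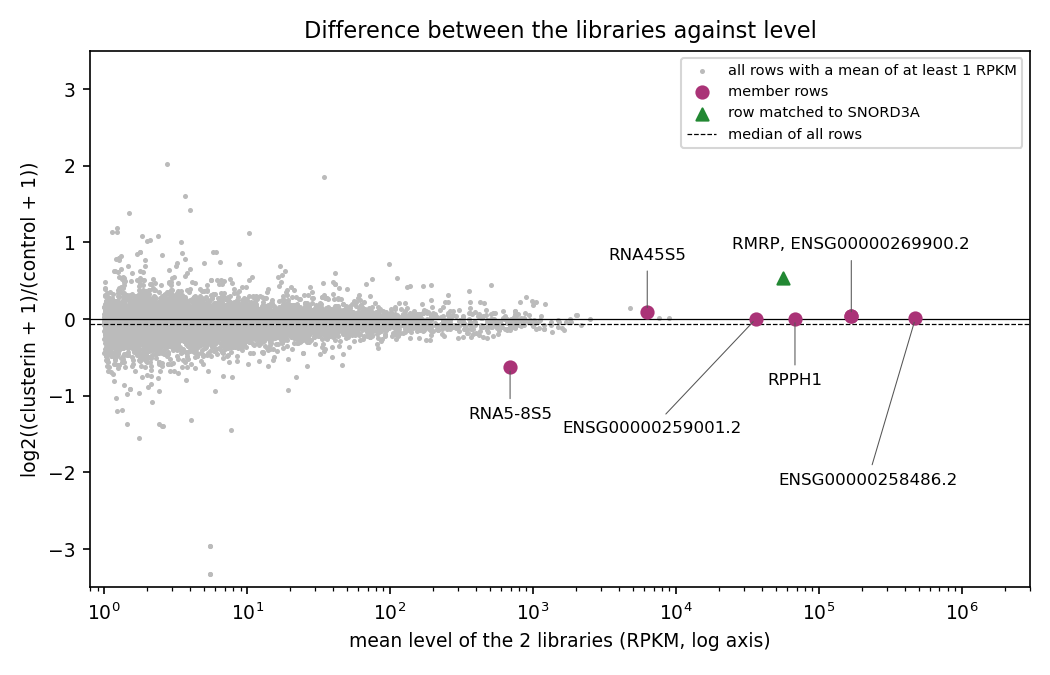
The log2 ratio of clusterin to control, with 1 RPKM added to each level, against the mean level of the libraries in RPKM on a log axis, for 13244 rows in grey, the 7 member rows in purple and the row matched to SNORD3A as a triangle. The member rows from RNA45S5 upward lie near 0, just above the dashed median of -0.06, and RNA5-8S5 lies at -0.62.

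The genes nearest in log2 ratio were sought among 410 genes listed by symbol with a mean of at least 100 RPKM. With 2 libraries a pattern is 1 ratio, so likeness means no more than that. The nearest to RMRP were the peroxiredoxin PRDX4 (108 and 111 RPKM) and CHCHD2 (264 and 272), both at 0.04. The nearest to RPPH1 were ARF1 (106 and 106) and the intermediate filament gene VIM (108 and 108). The metallothionein MT2A (197 and 198) and the histone gene HIST1H4I (761 and 767) were nearest to ENSG00000258486.2, and MIR3609 (382 and 410) and HIST3H2A (98.8 and 106) were nearest to RNA45S5. For RNA5-8S5 the nearest gene, SCARNA17, at 209 and 173 RPKM, was 0.35 away on the log2 scale, and S100A11, at 119 and 99.3, was 0.36 away.

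The 4 loci that do not overlap held 29.2% of control reads (29.15 to 29.18, exact binomial interval) and 30.0% of clusterin reads (29.96 to 29.99), with RNA5-8S5 left out because it lies within RNA45S5. The gap was 0.811 percentage points, of which 0.251 came from the 3 loci other than RNA45S5. The remaining 70.8% and 70.0% were left for all other genes. These shares take RNA45S5 as 1 copy. Counted as 2 copies, the 4 loci would hold 37.3% and 38.7%, with a gap of 1.37 percentage points, and all other genes 62.7% and 61.3%. Totals without the reads of the 4 loci would raise the log2 ratio of every other row by 0.017 with RNA45S5 as 1 copy and by 0.032 with 2, against a median of -0.06. The row ENSG00000263934.2, matched by identifier to SNORD3A, the U3 small nucleolar RNA of ribosomal RNA processing, stood at 45884 and 66307 RPKM and ranked between the RPPH1 rows. Over its span of 699 bases it held 3.21% and 4.63% of reads, with a ratio of 1.445 (1.442 to 1.449). With it, and RNA45S5 as 1 copy, the 5 loci held 32.4% and 34.6%, and totals without them would raise the other rows by 0.049.

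**Figure D3:**
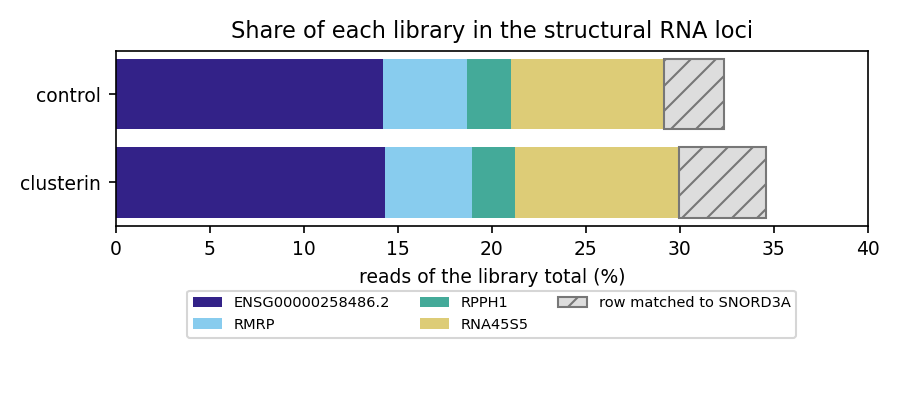
Share of each library's reads in percent, stacked for ENSG00000258486.2, RMRP, RPPH1 and RNA45S5, with the row matched to SNORD3A hatched. With RNA45S5 taken as 1 copy, the 4 solid segments end at 29.2% for control and 30.0% for clusterin, and the hatched segment widens from 3.21% to 4.63%.

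Other RNAs interleaved with the lower members. Of the rows outside the 7, 69 had a mean above that of RNA5-8S5. H19, an imprinted noncoding RNA, stood at 8859 and 8976 RPKM, between RPPH1 and RNA45S5, and its second listing ENSG00000130600.11 at 7594 and 7692. The microRNA gene MIR675, within H19, followed at 4564 and 5047, and ENSG00000269968.1 at 2513 and 2519. The translation elongation factor EEF1A1 stood at 2222 and 2100 RPKM, the ferritin gene FTH1 at 1884 and 1834, and the glycolytic gene GAPDH at 1814 and 1819. SCARNA2, a Cajal body RNA, stood at 2001 and 2076 over a span of 420 bases. ENSG00000270066.2, without a symbol in the reference table, stood at 1969 and 2043 over 427 bases. Level times span gave 0.084% of control reads for each, and both log2 ratios were 0.053. By these values ENSG00000270066.2 may be a second listing of SCARNA2 and not a separate RNA.

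The other structural RNAs that could be matched by name stood, apart from SNORD3A, below RNA45S5 in both libraries. Of 41 listed, 16 were matched by symbol, synonym or Ensembl identifier, 1 was at 0 and 15 reached 1 RPKM. The rest, RN7SL1 among them, were not matched, which does not show that their loci lack a row. Of the 15, 10 lay above 0 and 5 below on the log2 scale, with a median of 0.30, the value of the U3 copy SNORD3C. Counting intervals of the ratio included 1 for RNU4ATAC, VTRNA2-1 and RNY4 above 0 and for RNU11 and VTRNA1-3 below. Outside U3, SCARNA2 and TERC had the most reads and lay at 0.05 and -0.05. None reached 2-fold with 1 RPKM added, but the ratio of reads did for RNY4. TERC, the RNA of telomerase, stood at 705 and 681 RPKM, so RMRP was 236 and 252 times above it. Its ratio was 0.965 (0.940 to 0.991). RNU6ATAC, of the minor spliceosome, stood at 312 and 402 RPKM, with a ratio of 1.29 (1.20 to 1.38). Other minor spliceosome RNAs, RNU12 (174 and 146 RPKM), RNU11 (95.1 and 90.2) and RNU4ATAC (16.3 and 21.6), had log2 ratios of -0.25, -0.08 and 0.38.

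The RNAs with VTRNA symbols, small RNA polymerase III transcripts, were VTRNA1-1 (14.1 and 22.5 RPKM), VTRNA1-2 (12.8 and 21.2), VTRNA1-3 (116 and 101) and VTRNA2-1 (31.6 and 38.6). Their reads were few for VTRNA1-2, with 43 and 62, and the ratio of 1.66 had an interval of 1.11 to 2.51. RNY4, a Y RNA, stood at 1.54 and 3.55 RPKM (log2 0.84), and its read ratio of 2.11 rested on 6 and 11 reads, with an interval of 0.716 to 6.96. Copies of U3 differed in direction. SNORD3B-1 was lower with clusterin, at 56.1 and 36.8 RPKM, while SNORD3A, SNORD3B-2 (17.1 and 23.3) and SNORD3C (15.9 and 19.8) were higher. Reads of near-identical copies cannot be told apart, which holds for U3, for the ribosomal RNA repeats and for any gene-like copies of the members.

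Genes that build or use these RNAs were measured at levels from 1.21 to 491 RPKM over the lists below, and none reached 2-fold. The counts above and below 0 in these lists stand against 70.2% of all 13244 measured rows below 0. With the control rescaled to a median log2 ratio of 0 over all rows, the medians of 4 lists turned from below to above 0, to 0.034 for ribonuclease P and MRP proteins, 0.055 for RNA polymerase III, 0.0036 for ribosomal RNA processing and 0.020 for signal recognition particle proteins. Those of RNA polymerase I (-0.027) and of telomerase proteins (-0.010) stayed below 0. Of the 11 protein subunits of ribonucleases P and MRP, 10 reached 1 RPKM, with a median of 6.91 RPKM in the control and 6.49 with clusterin. Of these, 3 lay above 0 and 7 below, with a median log2 ratio of -0.03, and 2 lay below the median of all rows. RPP30 was at 2.87 and 2.39 RPKM (log2 -0.19), POP1, the largest shared subunit, at 7.81 and 7.14 (-0.11), RPP38 at 5.00 and 5.27 (0.06) and RPP40 at 4.72 and 4.55 (-0.04).

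RNA polymerase III subunits and the factors of its upstream promoters numbered 23, all measured, with 10 above 0, 13 below and a median log2 ratio of -0.0050. Polymerase subunit POLR3GL was at 6.13 and 5.05 RPKM (-0.24), POLR3A, the largest subunit, at 5.06 and 4.38 (-0.17), and BRF2, the initiation factor of these promoters, at 4.73 and 5.41 (0.16). POU2F1, the octamer-binding factor OCT1, was at 2.42 and 2.04 (-0.17). RNA polymerase I and its factors had 19 of 20 measured, 4 above 0 and 15 below, and a median of -0.08. POLR2K, shared by the polymerases, was at 23.5 and 19.6 RPKM (-0.25), the initiation factor RRN3 at 10.8 and 9.23 (-0.21), POLR1B at 6.95 and 6.01 (-0.18) and POLR1C at 18.8 and 16.7 (-0.16).

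All 51 ribosomal RNA processing and 5.8S maturation factors were measured, 14 above 0 and 37 below, with a median of -0.06, equal to that of all rows at this rounding. UTP3 was at 9.90 and 7.59 RPKM (-0.34), ISG20L2, an exonuclease of 5.8S maturation, at 11.8 and 9.67 (-0.26), C1D, an exosome cofactor, at 6.40 and 5.26 (-0.24), and NIP7 at 10.4 and 8.93 (-0.19). The 8 signal recognition particle and receptor proteins had 1 above 0, 7 below and a median of -0.05, with SRP72 at 16.7 and 14.1 RPKM (-0.22), SRP14 at 91.3 and 82.5 (-0.14), SRP54 at 14.2 and 12.8 (-0.14) and SRPR at 14.5 and 13.8 (-0.07). Of 6 telomerase proteins 5 were measured, with 1 above 0, 4 below and a median of -0.08. They included NOP10 at 60.0 and 54.8 RPKM, DKC1 at 30.7 and 29.1, GAR1 at 5.57 and 5.23 and WRAP53 at 6.75 and 7.10.

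**Figure D4:**
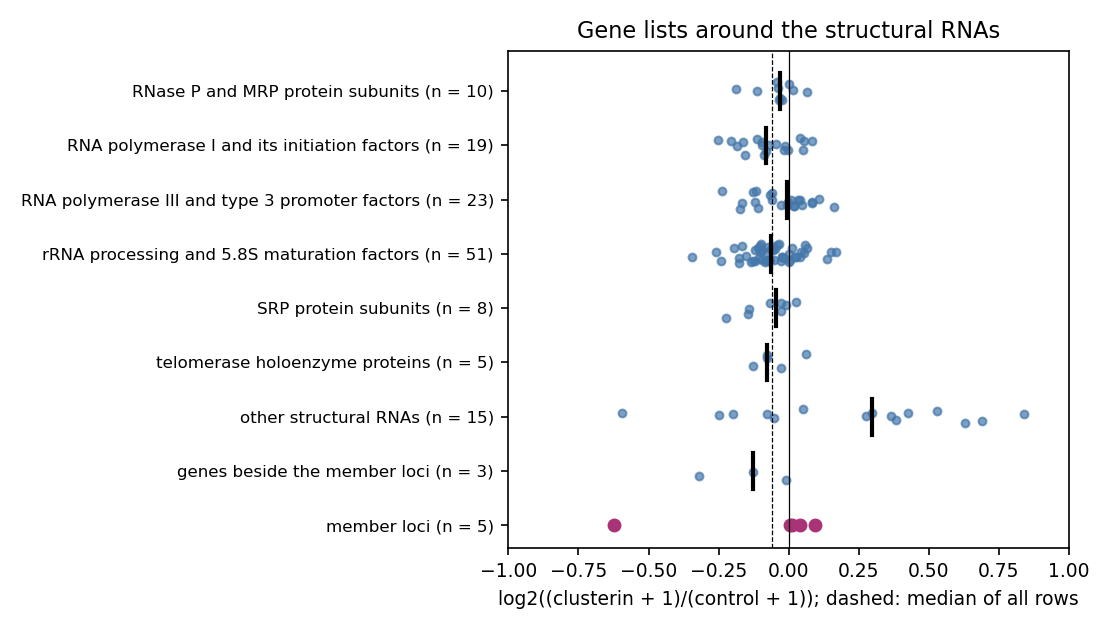
The log2 ratio of clusterin to control for each measured gene of 8 lists and for the 5 member loci, with a vertical bar at each list's median, a solid line at 0 and a dashed line at the median of all rows. The protein lists cluster at or just below 0, with medians from -0.08 to -0.0050 that lie above 0 for 4 of the 6 lists after rescaling, while the other structural RNAs spread widely around a median of 0.30 and RNA5-8S5 lies at -0.62.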

How the data were processed

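RNA from 1 clusterin-treated and 1 control culture of D407 cells was sequenced. Per the labels' protocols, oligo(dT) beads were used for enrichment and random hexamers for the first cDNA strand. Tools named per the submitters' processing notes are TopHat, Bowtie and Cuffdiff, with hg19 as the build and no versions. For each gene the authors deposited 2 levels, their log2 fold change, and its p-value and q-value. The header names no unit for the levels. They are called RPKM, as deposited by the authors, because 485 of 529 small RNA rows above 0 in both libraries gave whole reads, within 0.02, at 1 total per library. Single reads and read pairs cannot be told apart. The deposited p-value lay within 2% of the Audic-Claverie p of these reads for 477 of 485 rows.

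Groups came from the labels. Reads were level times length times total. Length was the span in the table, the RefSeq entry for RNA45S5, and, for RNA5-8S5, the shortest length from 100 to 400 bases giving whole reads, which is also that of its RefSeq entry. High values have 6 digits, so reads of the largest rows are approximate. The log2 ratio used a pseudocount of 1 RPKM, which understates low genes, and was read where the mean was at least 1 RPKM. Ratios have 95% Clopper-Pearson intervals of the clusterin share of reads. No test between groups was made. Members and lists were chosen with earlier results of these data known. Named genes were all member rows, up to 4 genes per list furthest from 0, all measured structural RNAs on the list, neighbours within 10 kb, the 2 genes nearest in ratio, and the 10 highest other rows. Ensembl rows were matched to symbols through the reference table of names, and sequences came from RefSeq. Other pseudocounts, filters and scalings were tried. Python 3.11.15, numpy 2.4.6, scipy 1.17.1 and pandas 2.3.3 were used, and the steps were tested on simulated data.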

Additional observations from a re-analysis of the deposited data

How the results depend on the processing

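Pseudocounts of 0.1, 5 or none kept each member's log2 ratio within its counting interval, as did the other listing of each locus and the other RefSeq length of RNA45S5 for the summed share. Scaling reversed no member. It moved the 6 rows other than RNA5-8S5 beyond those intervals, which are narrow at this depth. With the control rescaled to a median log2 ratio of 0, a shift of 0.07, ENSG00000258486.2 was at 0.081, RMRP and ENSG00000269900.2 at 0.11, RPPH1 and ENSG00000259001.2 at 0.076, RNA45S5 at 0.17 and RNA5-8S5 at -0.55. With totals that left out the member loci they were at 0.028, 0.058, 0.023 and 0.11 for ENSG00000258486.2, RMRP, RPPH1 and RNA45S5. Leaving out SNORD3A as well, chosen after seeing the data, gave 0.060, 0.090, 0.054 and 0.14. The second listings had the same values at this rounding. RNA5-8S5 left its interval only under the median rescaling, and was at -0.61 with totals without the member loci, -0.58 without SNORD3A as well and -0.59 with quantile normalization. Quantile normalization set the other 6 rows to 0 by construction, as each held the same rank in both libraries. The count of genes past 2-fold was 29, 7 where the mean reached 5 RPKM, 76 and 5 with pseudocounts of 0.1 and 5, and 115 past 1.5-fold, a limit chosen after seeing the data. With RNA45S5 counted as 2 copies, chosen after seeing the data, the summed share was 37.3% and 38.7%. After rescaling, list medians turned to 0.034 for ribonuclease P and MRP proteins, 0.055 for RNA polymerase III, 0.0036 for ribosomal RNA processing and 0.020 for signal recognition particle proteins, while RNA polymerase I (-0.027), telomerase proteins (-0.010), genes beside the members (-0.06) and other structural RNAs (0.36) kept their sign. Spans for RNA45S5 and RNA5-8S5 were not run, since their rows give no coordinates. No paired analysis was possible because each group has 1 library. Depth limits RNY4, VTRNA1-2, VTRNA1-1 and RNU4ATAC most, which had the fewest reads of the named structural RNAs.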
